A study of Rattus norvegicus with 16 samples.

Results

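The genes described here encode the nuclear subunits of the mitochondrial respiratory chain and of ATP synthase, measured in sorted cells from cultures of rat olfactory mucosa. They were taken by name, as all probes that are not controls and whose gene name in the scanner files begins with Ndufa, Ndufb, Ndufc, Ndufs or Ndufv and a digit, is Sdha, Sdhb, Sdhc or Sdhd, or begins with Uqcr, Cox4 to Cox8 or Atp5. The rule gave 102 of 30367 probes and 84 gene names, of which 83 passed the filter for testing among 20571 genes. Sorted into complexes by the start of the name alone, 38 tested names were counted under complex I, 4 under complex II, 7 under complex III, 16 under complex IV and 18 under complex V. The name left out was Cox8c, which was well above background on 1 array in all, from p75 cells. The rule used names only and no measured value. For 3 of the names the current symbol is that of a gene whose product is no subunit of a complex (Atp5s is now Dmac2l, Atp5sl is Dmac2 and Cox4nb is Emc8), and 5 others are copies of members or are named like one (Atp5hl1, Cox6c-ps1, Ndufa10l1, Ndufa7l and Ndufb4l1).

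Expression was measured on 16 single-colour Agilent arrays, 4 for each of 4 cell populations, and the design calls the 4 samples of a population biological replicates. All cells came from male Fischer rats, with no genetic change named. They were separated by flow cytometry into CD90, p75, TRKA and TRKA-TGF cells, with 93 to 97% purity stated for the sorts. Of the sort antigens, CD90 is a surface glycoprotein, the product of Thy1, and p75 is a neurotrophin receptor of low affinity, the product of Ngfr. The first 3 populations shared 1 culture protocol, whereas TRKA-TGF denotes TRKA cells whose cultures had been conditioned with TGF-alpha (transforming growth factor alpha). The labels name neither the animals behind each replicate nor how many were pooled, and no age. RNA from each sort was amplified as cDNA by a global PCR before labelling, so that levels are those of amplified material.

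A level is the processed signal on the log2 scale, relative to the 75th percentile of its array, so a level of 0 is that percentile and a step of 1 is a factor of 2. In each difference the population named second is subtracted. They were tested with limma over all 16 arrays, a gene being called at a Benjamini-Hochberg adjusted p under 0.05 over all 20571 genes, and SE denotes the fitted standard error. Slide 1 carried p75 and TRKA samples, and slide 2 carried TRKA-TGF and CD90 samples. TRKA against p75 and TRKA-TGF against CD90 were therefore compared within a slide, where group and row of the slide cannot be told apart, while the remaining 4 comparisons run across slides, so that population and slide cannot be told apart. Ngfr was at 3.16 ± 0.24 in p75 cells (mean ± SD, n = 4 arrays here and below) and well above background on 0 TRKA arrays, and Thy1 was at 3.44 ± 0.29 in CD90 cells. Summed linear levels of 10 macrophage markers ranged from 561 to 756 on TRKA arrays and from 275 to 288 on TRKA-TGF arrays, against 27.6 to 45.9 on CD90 and 6.93 to 15.1 on p75 arrays. The share of spots well above background was 51.4 to 57.5% on TRKA arrays and 66.4 to 72.4% on the other 12.

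The respiratory chain sits in the inner mitochondrial membrane. Complex I (NADH dehydrogenase) and complex II (succinate dehydrogenase) pass electrons to ubiquinone, complex III (cytochrome bc1) passes them to cytochrome c, and complex IV (cytochrome c oxidase) passes them to oxygen. Complexes I, III and IV pump protons as they do so, and complex V, ATP synthase, uses the proton gradient to make ATP. A few core subunits of complexes I, III, IV and V are encoded in mitochondrial DNA and made inside the organelle, while the subunits described here are encoded in the nucleus and imported. Many of these nuclear genes are known to be regulated through promoter sites for NRF1, for ETS family factors such as GABP (also called NRF2), for YY1 and for Sp1.

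Promoters are shown for 6 members whose levels are described below, to let the differences be read beside the sequence before the gene. Each is the 250 bases upstream of the annotated start in RefSeq on GRCr8, given 5′ to 3′ on the strand of the gene. Capitals mark matches on either strand to GCGCA, any base and GCGC (NRF1), to CCGGAAG (ETS), AAGATGGC (YY1) and GGGCGG (GC box, the Sp1 element). Cox5b (chr9:46417587-46417836, plus strand) and Uqcrh (chr5:134790883-134791132, minus strand) were lower in CD90 than in p75 cells and each hold 1 ETS match. Cox7a2l (chr6:16936324-16936573, plus strand) was lower in CD90 cells than in p75 and TRKA-TGF cells and holds 4 GC boxes. Cox4i1 (chr19:65630133-65630382, plus strand), with 2 GC boxes, and Atp5i (chr14:1464610-1464859, plus strand), with 1 match to each of the 4 motifs, were higher in TRKA cells than in the other populations. Cox6a2 (chr1:192219717-192219966, minus strand), measurable in p75 cells alone, has no match.
Cox5b: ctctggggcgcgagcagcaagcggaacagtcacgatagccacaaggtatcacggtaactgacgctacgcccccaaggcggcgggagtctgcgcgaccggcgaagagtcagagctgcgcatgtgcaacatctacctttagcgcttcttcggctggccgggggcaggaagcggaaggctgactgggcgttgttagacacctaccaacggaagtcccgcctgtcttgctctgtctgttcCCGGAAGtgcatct
Uqcrh: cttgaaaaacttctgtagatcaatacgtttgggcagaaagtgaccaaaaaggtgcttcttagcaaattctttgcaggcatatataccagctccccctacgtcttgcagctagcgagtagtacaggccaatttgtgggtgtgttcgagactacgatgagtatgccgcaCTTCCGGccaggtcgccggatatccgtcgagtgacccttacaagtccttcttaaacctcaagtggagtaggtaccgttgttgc
Cox7a2l: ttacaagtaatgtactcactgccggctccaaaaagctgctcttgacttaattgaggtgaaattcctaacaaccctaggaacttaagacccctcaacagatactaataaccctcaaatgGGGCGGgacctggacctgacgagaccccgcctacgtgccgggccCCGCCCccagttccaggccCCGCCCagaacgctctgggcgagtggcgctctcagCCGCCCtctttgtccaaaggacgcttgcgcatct
Cox4i1: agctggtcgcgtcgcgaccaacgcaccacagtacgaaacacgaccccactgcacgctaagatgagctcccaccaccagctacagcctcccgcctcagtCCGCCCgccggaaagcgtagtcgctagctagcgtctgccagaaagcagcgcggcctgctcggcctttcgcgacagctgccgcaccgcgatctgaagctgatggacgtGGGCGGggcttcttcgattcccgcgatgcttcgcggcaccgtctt
Atp5i: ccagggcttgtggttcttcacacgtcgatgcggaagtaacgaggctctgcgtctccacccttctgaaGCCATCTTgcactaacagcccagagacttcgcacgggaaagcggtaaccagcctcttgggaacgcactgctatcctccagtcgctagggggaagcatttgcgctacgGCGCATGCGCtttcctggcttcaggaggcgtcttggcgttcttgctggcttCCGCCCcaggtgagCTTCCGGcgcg
Cox6a2: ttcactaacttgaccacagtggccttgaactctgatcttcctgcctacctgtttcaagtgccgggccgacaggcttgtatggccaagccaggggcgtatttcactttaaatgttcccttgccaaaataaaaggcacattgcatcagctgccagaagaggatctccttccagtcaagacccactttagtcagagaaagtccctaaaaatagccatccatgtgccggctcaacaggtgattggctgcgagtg

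In the window from 250 bases before to 50 after the start, 70 of the 84 names had a RefSeq promoter on GRCr8. The NRF1 motif was present in 14 of the 70 (20%), against 4.25% of all 33469 promoters in the table. ETS matches were found in 21 (30%, against 8.75%) and YY1 matches in 15 (21.4%, against 3.17%). These 3 motifs overlapped each other in 0 member promoters, and 41 of the 70 held at least 1 of them. The GC box was in 30 member promoters (42.9%, against 33.1% of all), CCAAT in 22 (31.4%, against 37.5%) and TATAAA in 5 (7.14%, against 14.2%), each searched on both strands. Of the 9 members called lower in CD90 than in p75 cells, 1 held the NRF1, 3 the ETS and 1 the YY1 motif. A match is a run of letters and not a measured binding site.

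On each array the median member stood above the 75th percentile of all probes, and the populations differed in how far above. Member medians ranged from 1.30 to 1.42 on p75 arrays and from 1.30 to 1.59 on TRKA-TGF arrays. They were lower on all 4 CD90 arrays, at 0.23 to 0.64, and higher on all 4 TRKA arrays, at 1.95 to 2.55. Ranked within its own array instead, the median member lay at percentile 79.2 in CD90, 85.8 in p75, 86.1 in TRKA-TGF and 86.9 in TRKA cells (means of 4 arrays). CD90 cells therefore had the lowest member median on either scale, whereas on ranks TRKA cells did not stand apart from p75 and TRKA-TGF cells, their ranges over arrays overlapping. Of the 83 members, 53 had their lowest mean level in CD90 cells and 53 had their highest in TRKA cells.

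**Figure D1:**
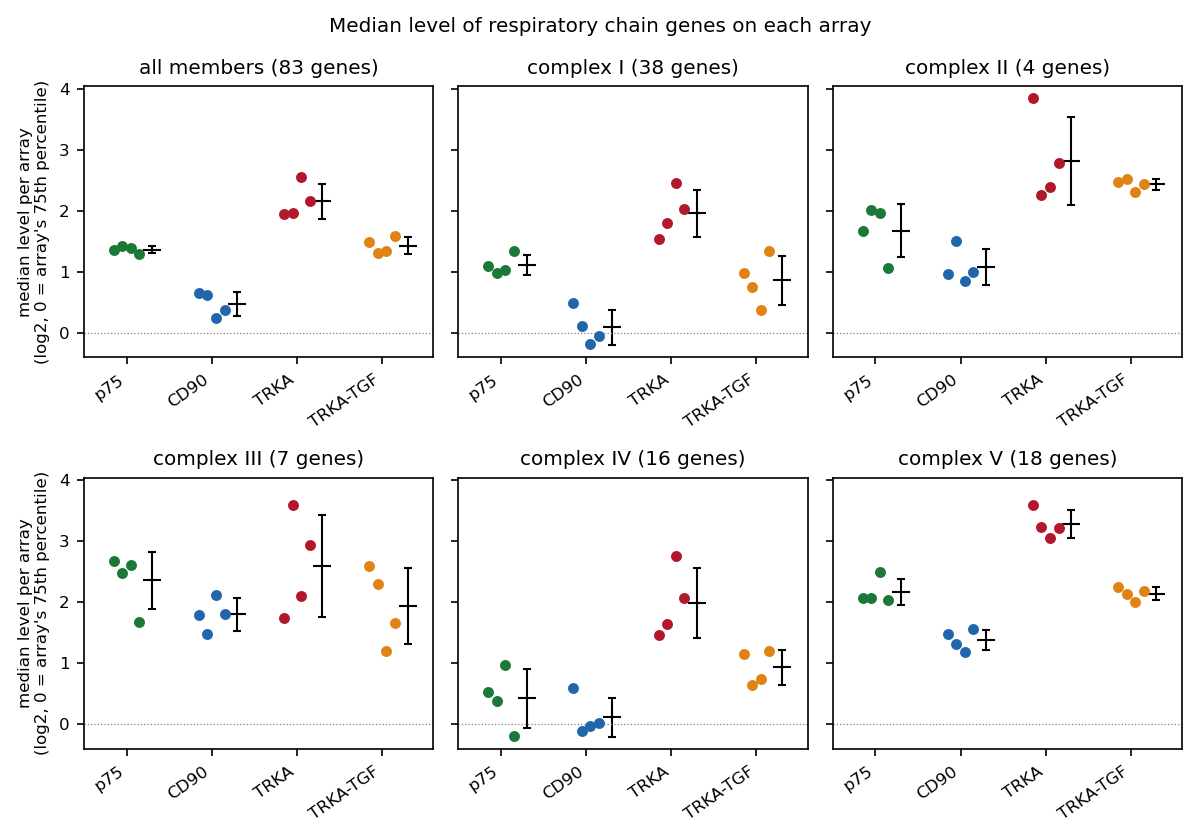
Median log2 level of the respiratory chain genes on each array (vertical axis, log2 signal over the array's 75th percentile), for all 83 members and for each complex, with arrays grouped by population. Points are single arrays, and bars give the mean ± SD of the 4 arrays. CD90 arrays (0.23 to 0.64 over all members) lie below p75 and TRKA-TGF arrays, and TRKA arrays (1.95 to 2.55) above them on this scale, though by ranks within the array TRKA, p75 and TRKA-TGF cells lie between percentiles 85.8 and 86.9.

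CD90 cells had the lowest and TRKA cells the highest mean of array medians in each of the 5 complexes on this scale. On ranks within the array this did not hold for complexes II and III. Complex II lay at percentile 89.7 in TRKA and 91.7 in TRKA-TGF cells. Complex III lay at 88.9 in TRKA and TRKA-TGF, 89.0 in CD90 and 91.5 in p75 cells. Complex I medians were 0.08 ± 0.29 in CD90, 0.86 ± 0.41 in TRKA-TGF, 1.11 ± 0.16 in p75 and 1.96 ± 0.39 in TRKA cells. Complex V medians ran from 1.38 ± 0.17 in CD90 to 2.14 ± 0.10 in TRKA-TGF, 2.17 ± 0.21 in p75 and 3.28 ± 0.23 in TRKA cells. The 7 genes of complex III differed less, with medians of 1.80 ± 0.27, 1.94 ± 0.63, 2.36 ± 0.47 and 2.60 ± 0.83 in the same order, and the ranges over arrays overlapped. Gene by gene, 3 of these 7 were higher in TRKA than in CD90 cells (median difference −0.20). Likewise 3 were higher in TRKA than in p75 cells (median difference −0.12). In complex II the medians were 1.08 ± 0.29 in CD90, 1.67 ± 0.44 in p75, 2.44 ± 0.09 in TRKA-TGF and 2.82 ± 0.72 in TRKA cells. The complex IV median of p75 cells, at 0.42 ± 0.48, lay close to that of CD90 cells, at 0.11 ± 0.32, with TRKA-TGF at 0.93 ± 0.28 and TRKA at 1.99 ± 0.57. Gene by gene, however, complex IV had the largest median difference of the 5 complexes in CD90 against p75 cells (−1.03), with 3 of 16 genes above 0. Well above background on all 16 arrays were 66 of the 83 members. Replicates agreed more closely for members than for all genes in p75 (median SD 0.39 against 0.65) and TRKA-TGF cells (0.33 against 0.54), but not in CD90 cells (0.66 against 0.68). In TRKA cells, where spread was widest, the median SD was 0.81 for members and 1.08 for all genes.

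In CD90 against p75 cells the respiratory chain genes that were called were lower in CD90 cells. Of the 83, 9 were called lower and 0 higher, where limma called 7.25% of all genes (3.68% higher and 3.57% lower). At any size, 74 of the members were below 0, and their median difference was −0.75 against 0.05 for all genes tested. The 4 arrays of each population did not overlap for 25 members, all lower in CD90 cells, against 9.32% of all genes that were lower without overlap and 9.65% that were higher. By complex, 4 of the called genes belonged to complex IV, 2 to complex I, 2 to complex V and 1 to complex III, and 0 of 17 core subunits were among them. The core subunits had a median difference of −0.36 and the other 66 members one of −0.81.

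The complex I genes called were Ndufb4 and Ndufc2, both accessory subunits of the membrane arm. Ndufb4 (rn4 chromosome 11, probe at 64852760 to 64857511) was at 4.08, 4.29, 4.41 and 4.29 on the p75 arrays and at 3.09, 3.38, 3.18 and 3.13 on the CD90 arrays. All 4 CD90 arrays were below the lowest p75 array, a difference of −1.07 (SE 0.24, adjusted p = 0.0119). The call was lost when its probes were averaged (adjusted p = 0.44) and on within-array ranks. Ndufc2 (chromosome 1, 154642009 to 154642068) ranged from 0.41 to 1.19 in p75 and from −1.76 to −0.91 in CD90 cells, 4.53-fold lower (adjusted p = 0.0339). In complex III, Uqcrh, the hinge protein that helps cytochrome c1 and cytochrome c meet, ranged from 4.10 to 4.50 in p75 and from 3.04 to 3.41 in CD90 cells (−1.03, SE 0.27, adjusted p = 0.0322; chromosome 5, 136260836 to 136260895).

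The 4 complex IV genes were Cox5b, Cox7a2, Cox7a2l and Cox6a2. Cox6a2 passed the filter for testing only through the p75 arrays, where it was high, and is described below. Cox5b, a zinc-binding subunit on the matrix side (chromosome 9, 35627211 to 35627270), was at 1.58, 2.29, 1.89 and 1.03 in p75 cells and at −0.13, −1.25, −0.19 and −0.19 in CD90 cells. Every CD90 array was below the array percentile that marks 0 and every p75 array above it, 4.40-fold apart (−2.14, SE 0.41, adjusted p = 0.00414), and the call held in all 27 alternatives run (highest adjusted p 0.0174). Cox7a2, the widely expressed form of subunit 7a, ranged from 4.32 to 4.82 in p75 and from 3.04 to 3.56 in CD90 cells (−1.31, SE 0.32, adjusted p = 0.0228). Its dimmer probe had the same direction but was not called (−1.42, SE 0.89, adjusted p = 0.474 in a fit of single probes). Cox7a2l, which helps complexes III and IV join into supercomplexes (chromosome 6, 6834523 to 6834582), was at 2.04, 2.68, 2.21 and 1.48 in p75 cells and at 0.57, 0.79, 1.37 and 0.97 in CD90 cells. The highest CD90 array was just under the lowest p75 array, and the difference was −1.18 (SE 0.29, adjusted p = 0.0214).

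In complex V the calls were Atp5d and Atp5j2. Atp5d (now Atp5f1d, the delta subunit of the central stalk; chromosome 7, 11073061 to 11073120) was at 3.17, 2.37, 2.64 and 2.95 in p75 cells and at 1.41, 1.38, 1.26 and −0.03 in CD90 cells. CD90 replicate 4 stood below the 3 others, which were themselves below all p75 arrays. The difference was −1.78 (SE 0.42, adjusted p = 0.0182). Without CD90 replicate 4, p75 replicate 1 or p75 replicate 4 the adjusted p rose to at most 0.0576. Atp5j2 (now Atp5mf, subunit f of the membrane part) ranged from 4.73 to 4.90 in p75 and from 3.84 to 4.30 in CD90 cells (−0.81, SE 0.19, adjusted p = 0.0186). Of the 27 alternatives, the call against p75 cells was lost in 9 for Ndufc2, 8 for Uqcrh and 8 for Cox7a2. It was lost in 5 for Cox7a2l and 4 for Atp5j2. Of the core subunits, Uqcrc1 and Sdhd missed the threshold with no overlap between the groups, both with a difference of −0.99 (adjusted p = 0.0694 and 0.0712).

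No member was called higher in CD90 cells under any of the 27 alternatives, and the number called lower ran from 4 to 15. It fell to 4 without CD90 replicate 4 and to 5 without p75 replicate 1, 2 or 3, each left out alone. These populations lay on different slides, and beside the respiratory genes the glial markers fell from a summed level of 92.0 to 100.02 on p75 arrays to 0.97 to 1.76 on CD90 arrays while fibroblast markers rose from 197 to 214 to 473 to 543. The part of either in these differences was not tested, and in such bulk samples fewer cells of a type and less RNA per cell cannot be told apart.

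**Figure D2:**
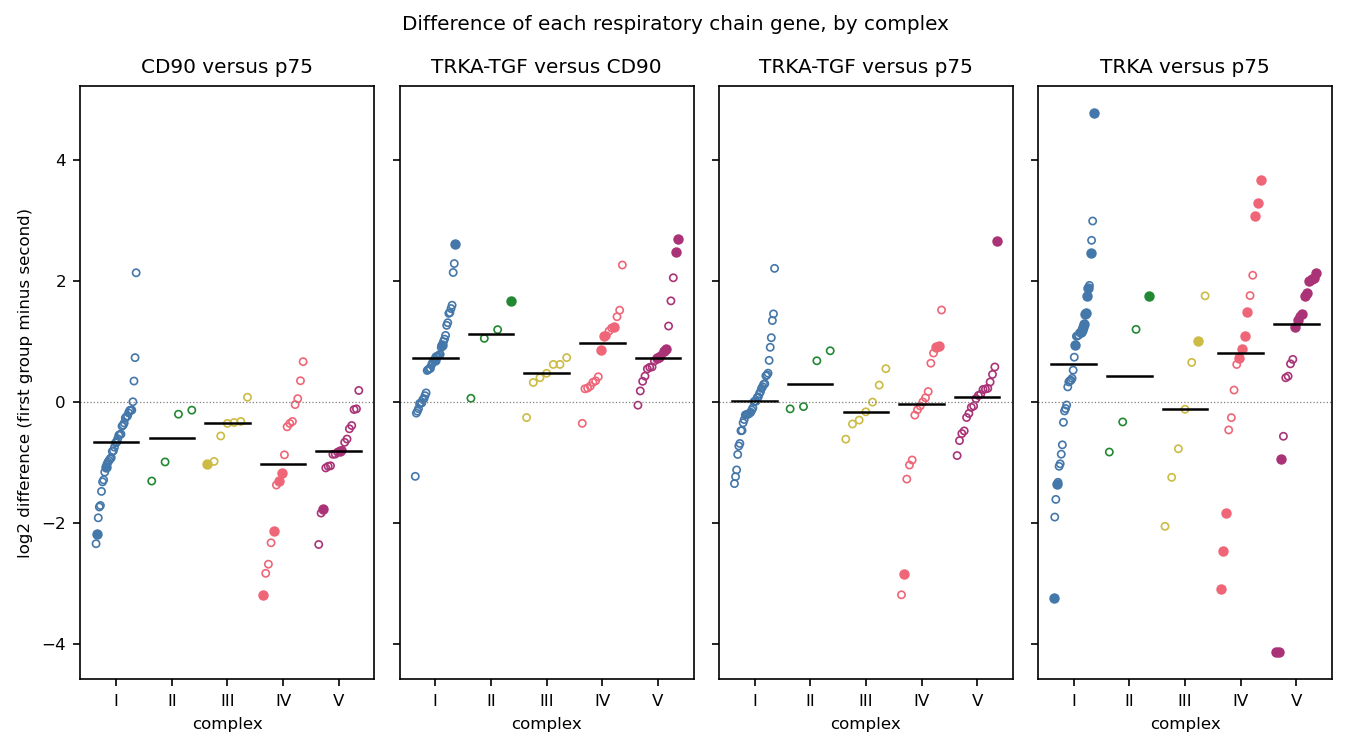
Log2 difference of each respiratory chain gene (points, vertical axis) by complex (horizontal axis), in 4 of the comparisons. Filled points were called by limma at an adjusted p under 0.05, open points were not, and lines are medians of a complex. In CD90 against p75 cells 74 of 83 points lie below 0 and in TRKA-TGF against CD90 cells 73 lie above it. The points of TRKA against p75 cells lie on both sides, and their balance (29 called higher and 8 lower here) changes to 10 and 16 when the percentile is taken over always detected probes.

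On slide 2, where TRKA-TGF and CD90 cells could be compared within a slide, the members called were all higher in TRKA-TGF cells. The share called was close to that of all genes called in either direction, and above that of all genes called higher. The fit called 13 of 83 higher and 0 lower, where 14.9% of all genes were called (7.72% higher and 7.19% lower). Differences were above 0 for 73 members, with a median of 0.72 against 0.15 for all genes. Groups did not overlap for 31 members, all higher in TRKA-TGF cells, against 16.3% of all genes higher and 12.2% lower without overlap. The called genes were 3 of complex I, 1 of complex II, 3 of complex IV and 6 of complex V, and 0 of the 7 of complex III. This comparison shares the CD90 arrays with the one above, so that low levels on those arrays enter both.

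Sdhd, a membrane anchor of succinate dehydrogenase (chromosome 8, 53955238 to 53955297), was at 2.53, 2.82, 2.77 and 2.64 in TRKA-TGF cells and at 0.81, 1.58, 0.35 and 1.34 in CD90 cells. The TRKA-TGF arrays were close together and all above the CD90 arrays, a 3.19-fold difference (1.67, SE 0.31, adjusted p = 0.00167) that was called in all 27 alternatives. Sdhd was the 1 core subunit called. The catalytic Sdha was nearly level across both, at 4.46 to 4.53 in TRKA-TGF and 4.29 to 4.60 in CD90 cells, and was not called in any of the 6 comparisons.

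Atp5g1, 1 of 3 genes that encode the same c subunit of the ATP synthase ring (now Atp5mc1; chromosome 10, 84788650 to 84788709), was at 1.54, 2.01, 1.86 and 1.30 in TRKA-TGF cells and at −1.35, −0.90, −1.12 and 0.21 in CD90 cells. In p75 cells it was at −1.69, −0.70, −1.53 and 0.01. All TRKA-TGF arrays were above all arrays of both other populations, by 2.47 over CD90 cells (SE 0.56, adjusted p = 0.0076) and by 2.66 over p75 cells (SE 0.56, adjusted p = 0.00425). Both calls held in all 27 alternatives, with highest adjusted p of 0.0264 and 0.0166. The TRKA arrays were scattered, at 1.95, −0.70, 0.74 and −0.25, and TRKA-TGF cells did not differ from them beyond that spread (1.24, adjusted p = 0.121). The other 2 genes for the c subunit were not called in TRKA-TGF cells against CD90 or p75 cells. Atp5g2 differed from CD90 cells by 0.42 (adjusted p = 0.725) and Atp5g3 by 1.67 (adjusted p = 0.0588).

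Cox7a2l rose to 2.11, 1.97, 2.22 and 2.37 in TRKA-TGF cells, 2.37-fold above the CD90 arrays given before and without overlap (1.24, SE 0.29, adjusted p = 0.00836), again in all 27 alternatives. Ndufb4 was at 4.31, 4.08, 4.02 and 4.13, all above the CD90 arrays (0.94, SE 0.24, adjusted p = 0.0154), but with its probes averaged the adjusted p was 0.478. The other complex IV calls were Cox7c, a small structural subunit, and Cox7a2. Cox7c ranged from 1.14 to 1.34 in TRKA-TGF and from 0.03 to 0.76 in CD90 cells (0.86, adjusted p = 0.0325), and Cox7a2 differed by 1.09 (adjusted p = 0.0348). Atp5e, the epsilon subunit, was at 1.99, 0.74, 1.44 and 2.13 in TRKA-TGF cells and at 0.64, −0.36, −0.57 and −4.16 in CD90 cells, where replicate 4 was far below the others. Its difference of 2.69 (adjusted p = 0.0278) was 1.67 without CD90 replicate 4 (adjusted p = 0.0117). Of the other complex V calls, the differences were 0.74 for Atp5j2, 0.84 for Atp5l, 0.72 for Atp5h and 0.87 for Atp5hl1, with adjusted p from 0.0175 to 0.0488. Atp5hl1 is named as a copy of Atp5h, and probes of the pair may share signal. Ndufb9 (0.70, adjusted p = 0.0386) and Ndufb11 (2.60, adjusted p = 0.0412) completed complex I. Ndufb11 ranged from −2.45 to 2.17 in CD90 cells, so that 1 CD90 array lay within the TRKA-TGF range of 1.92 to 2.37. Many of these calls did not hold throughout. Of the 27 alternatives, the call was lost in 18 for Atp5h, 14 for Ndufb9, 13 for Cox7a2, 12 for Ndufb11 and 11 for Atp5l. It was lost in 9 for Atp5hl1, 7 for Cox7c, 6 for Atp5j2, 4 for Atp5e and 3 for Ndufb4.

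Between 4 and 19 members were called higher in TRKA-TGF than in CD90 cells over the alternatives, and 0 lower in each. The count fell to 5 without TRKA-TGF replicate 1, 2 or 3, to 6 without TRKA-TGF replicate 4 or CD90 replicate 2, and to 8 without CD90 replicate 4. With the percentile taken over always detected probes it was 4, the median difference then being 0.51. Fibroblast markers moved the other way, from 473 to 543 in CD90 cells to 4.36 to 14.8 in TRKA-TGF cells. Of 10 macrophage markers, 10 were above background on all TRKA-TGF arrays and 9 on all CD90 arrays, with summed levels of 275 to 288 and 27.6 to 45.9. The part of these markers' cells in the differences was not tested.

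**Figure D3:**
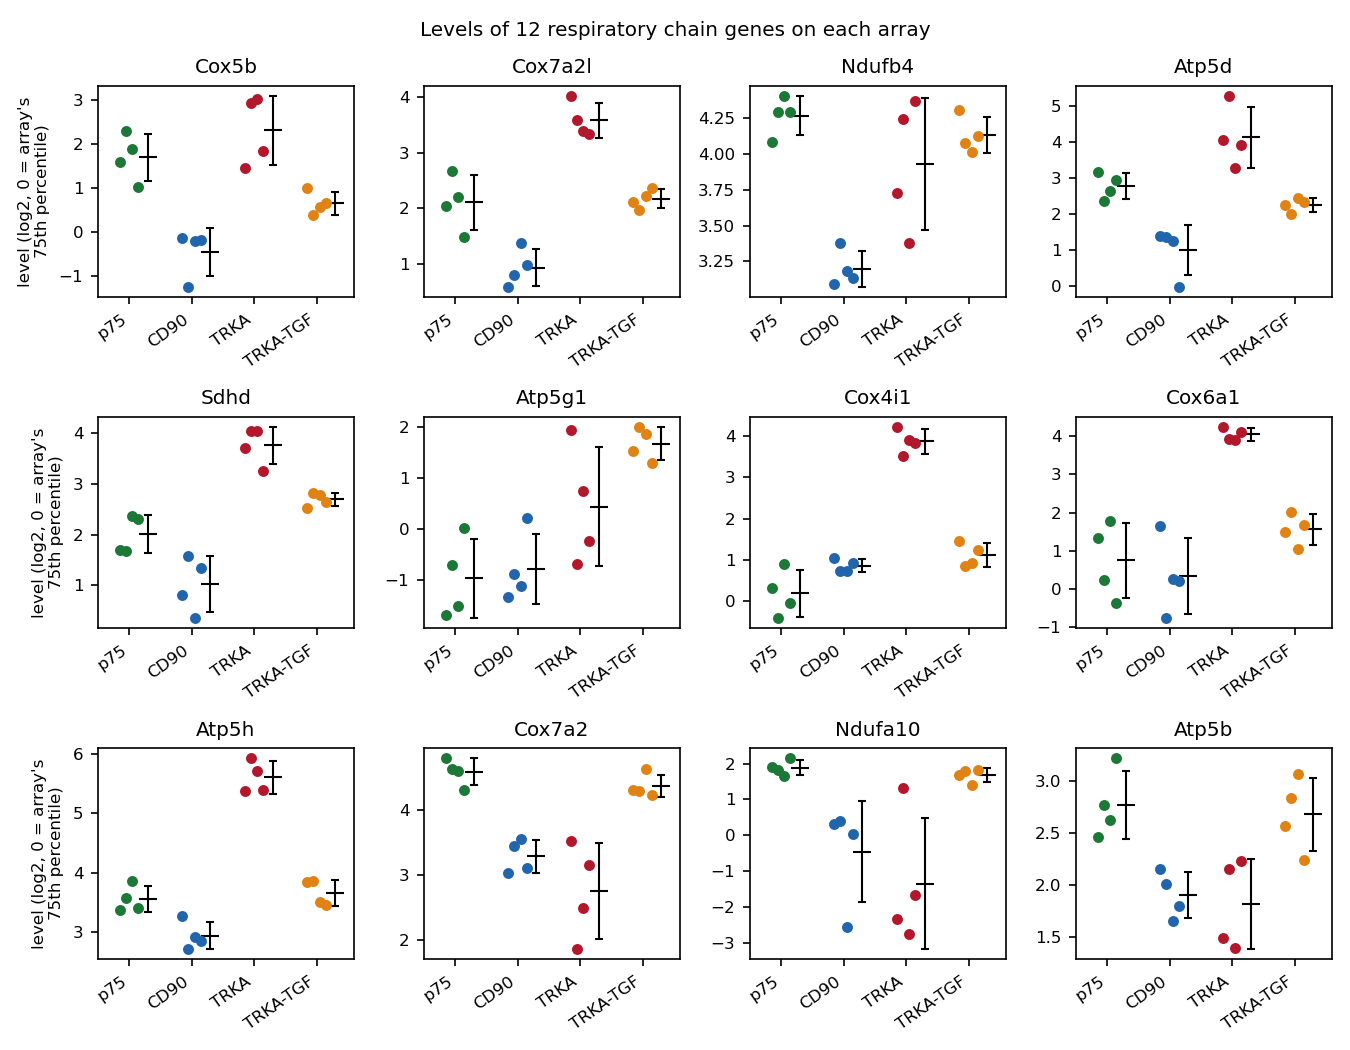
Log2 level over the array's 75th percentile (vertical axis) of 12 respiratory chain genes on each of the 16 arrays, grouped by population, with points for single arrays and bars for the mean ± SD of 4 arrays, and an axis of its own for each gene. Cox5b is below 0 on all 4 CD90 arrays, Cox4i1 stands between 3.50 and 4.22 on the TRKA arrays against −0.41 to 1.47 elsewhere, and Cox7a2 is lower in TRKA (1.85 to 3.52) than in p75 cells (4.32 to 4.82).

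TRKA-TGF and p75 cells, on different slides, differed in few members. The fit called 3 higher and 1 lower, where it called 15.1% of all genes (7.97% higher and 7.15% lower). The member median was 0.00 against 0.14 for all genes, and 41 of 83 differences were above 0. Besides Atp5g1, the genes called higher were Cox7c, at 1.14 to 1.34 against −0.16 to 0.81 (0.91, SE 0.25, adjusted p = 0.0232), and Cox4i1, at 0.86 to 1.47 against −0.41 to 0.91 (0.92, SE 0.29, adjusted p = 0.0465). The Cox4i1 ranges overlapped and its call was lost in 14 of the 27 alternatives. The gene called lower was Cox6a2, which passed the filter only through its p75 arrays. The count of genes called higher fell to 1 without TRKA-TGF replicate 1, 2 or 3 or p75 replicate 4. The count called lower rose to 2 without CD90 replicate 1 or 4, TRKA replicate 4 or p75 replicate 2 or 3, and to 3 without TRKA-TGF replicate 2.

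TRKA cells showed the highest levels of many members, and these differences depended on how arrays were scaled. On the 75th percentile scale 29 members were called higher and 8 lower in TRKA than in p75 cells, on the same slide, where 35.7% of all genes were called (18.8% higher and 16.9% lower). The member median was 0.73 against −0.01 for all genes, yet with quantile normalization 14 were higher and 12 lower with medians of 0.27 and 0.24. With the percentile over probes detected on all arrays, 10 were higher and 16 lower and the medians were −0.16 and −0.90. On ranks within the array 12 were higher and 7 lower. On the main scale, genes above background on all 16 arrays also leaned to TRKA cells, with 3182 of 9678 higher, 791 lower and a median of 0.58. The 66 such members had 27 higher, 4 lower and a median of 0.98. Among all genes called, 52.7% were higher in TRKA cells on the main scale, 60.4% after quantile normalization, 66.9% with normexp background correction and 20.7% with the percentile of always detected probes. The balance of higher and lower members in TRKA cells therefore cannot be given independently of the scaling. The genes below kept their call in all 27 alternatives unless stated, and the macrophage marker sums given above were highest in these cells, whose part in the differences was not tested.

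**Figure D4:**
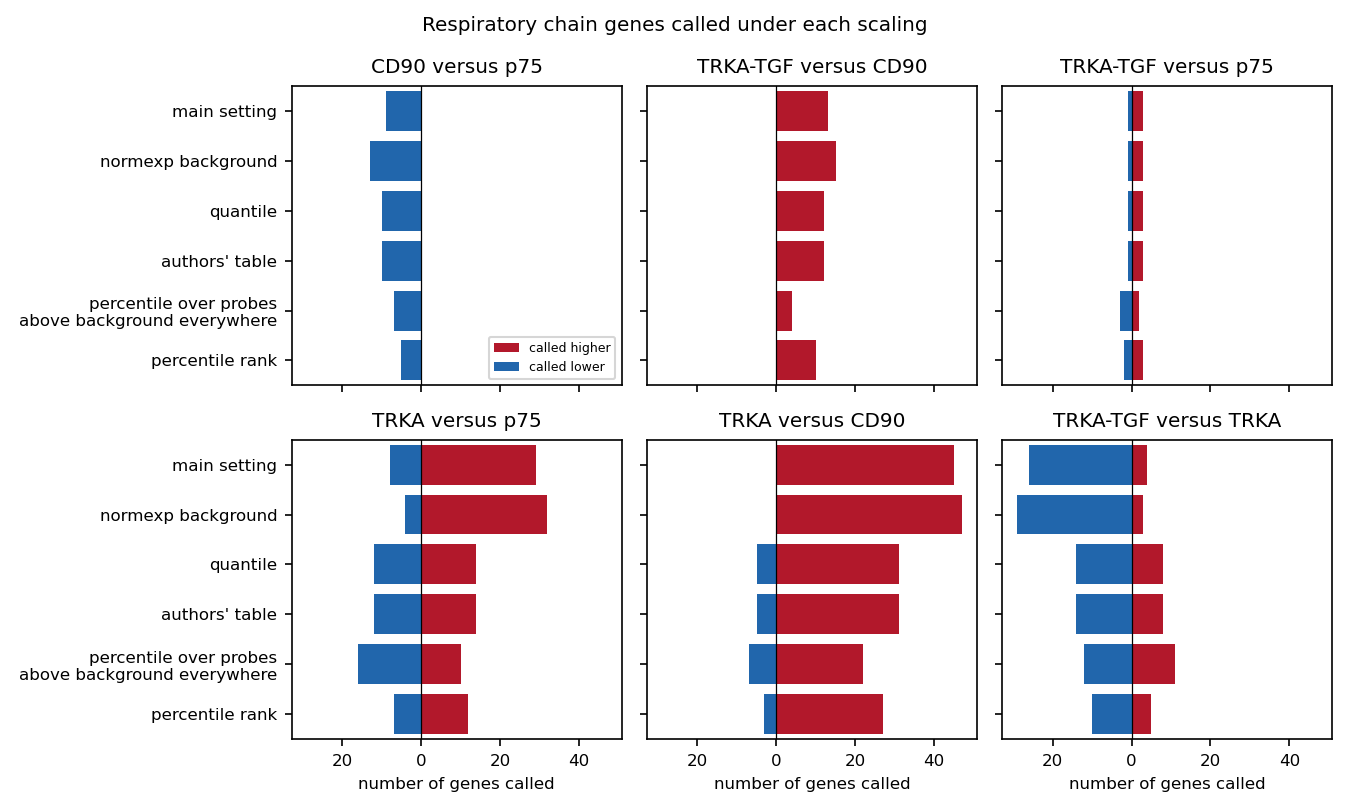
Number of the 83 members called higher (right of 0) and lower (left of 0) in each comparison under each way of scaling the arrays (vertical axis). CD90 against p75 cells (5 to 13 lower, 0 higher) and TRKA-TGF against CD90 cells (4 to 15 higher, 0 lower) keep 1 direction, while TRKA against p75 cells runs from 32 higher and 4 lower to 10 higher and 16 lower.

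Cox4i1, the widely expressed form of subunit 4 (chromosome 19, 51030141 to 51030200), was at 4.22, 3.50, 3.89 and 3.82 in TRKA cells and at 0.33, −0.41, 0.91 and −0.05 in p75 cells. All TRKA arrays were far above all others, 12.6-fold over p75 cells (3.66, SE 0.29, adjusted p = 4.54e-07), while CD90 arrays ranged from 0.73 to 1.05 and TRKA-TGF arrays from 0.86 to 1.47. Cox4i2, the lung and hypoxia form of the same subunit, was dim in all populations, at means of −5.22 to −3.70, and was not called in any comparison. Cox6a1 was also higher in TRKA than in p75 cells, at 3.90 to 4.25 against −0.35 to 1.78 (3.29, SE 0.51, adjusted p = 0.000204). In complex V, Atp5h, a peripheral stalk subunit now named Atp5pd, was at 5.37 to 5.93 in TRKA and 3.37 to 3.86 in p75 cells (2.04, SE 0.23, adjusted p = 1.15e-05). Atp5i, now Atp5me and subunit e of the membrane part, was at 3.67 to 4.38 against 1.95 to 2.79 (1.74, SE 0.26, adjusted p = 0.000158). Ndufb7 of complex I was at 3.31 to 4.32 against 1.47 to 2.27 (1.88, SE 0.30, adjusted p = 0.000213). Sdhd (1.74, adjusted p = 0.000508) and Ndufb9 (1.75, adjusted p = 2.15e-05) lost the call in 1 alternative each. In complex III the 1 call was Uqcrc1, a core protein of the matrix side, at 1.01 (adjusted p = 0.0178), lost in 6 alternatives.

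Members lower in TRKA than in p75 cells included Cox7a2 and Ndufa10, whose calls also held in all 27 alternatives. Cox7a2 was at 3.52, 1.85, 2.49 and 3.16 in TRKA cells, all below the lowest p75 array at 4.32 (−1.84, SE 0.32, adjusted p = 0.00048). Ndufa10, a complex I accessory subunit, was at −2.33, 1.31, −2.74 and −1.67 in TRKA cells and at 1.91, 1.82, 1.65 and 2.17 in p75 cells. TRKA replicate 2 stood apart from the 3 other TRKA arrays but stayed below the p75 arrays (−3.25, SE 0.79, adjusted p = 0.00558). Atp5b, the catalytic beta subunit of ATP synthase, was at 1.39 to 2.23 in TRKA and 2.46 to 3.22 in p75 cells (−0.95, SE 0.28, adjusted p = 0.0171), with the call lost without p75 replicate 4 and in the fit of these 8 arrays alone. The alpha subunit Atp5a1 went the other way on this scale, at 4.17 to 4.62 against 3.08 to 3.23 (1.23, adjusted p = 0.0013), and lost its call in 4 alternatives. The other genes called lower were Cox6a2, Cox8b, Ndufa10l1, and the non-subunits Atp5s and Atp5sl. Atp5s lost its call in 17 of the 27 alternatives and Atp5sl in 10, while Cox6a2 and Cox8b are described below. Ndufa10l1 was called by its brighter probe (−1.37, adjusted p = 0.024 in a fit of single probes). Its other probe went the other way and was not called (0.83, adjusted p = 0.0579). How the Ndufa10l1 call fared over the alternatives is not reported here. The count of 8 fell to 5 without TRKA replicate 2 or p75 replicate 1, 2 or 3, to 4 without TRKA replicate 4 and to 3 without p75 replicate 4.

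Against TRKA-TGF cells, on the other slide, the result again moved with the scaling. The fit called 26 members lower and 4 higher in TRKA-TGF than in TRKA cells, where 26.4% of all genes were called (13.5% higher and 12.9% lower). The median was −0.66 for members and 0.19 for all genes, against −0.41 and −0.14 with quantile normalization (8 higher, 14 lower) and 0.11 and 0.96 with the percentile of always detected probes (11 higher, 12 lower). Of the genes above background on all 16 arrays, 671 of 9678 were higher and 2363 lower on the main scale (median −0.32). Of the 66 such members 3 were higher and 25 lower (median −0.93). Cox4i1 was 6.66-fold lower in TRKA-TGF cells (−2.74, SE 0.29, adjusted p = 1.6e-05) and Ndufb7 differed by −2.22 (SE 0.30, adjusted p = 0.000104). Cox7a2 was higher, at 4.25 to 4.64 against 1.85 to 3.52 (1.62, SE 0.32, adjusted p = 0.00199), as was Ndufa10, at 1.41 to 1.83 (3.04, SE 0.79, adjusted p = 0.0119). These 4 calls held in all 27 alternatives. The count of 4 genes called higher, which also held Atp5b and Atp5s, fell to 2 without TRKA-TGF replicate 2 or 3. Atp5s lost its call in 16 of the 27 alternatives and Atp5b in 7.

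Against CD90 cells 45 members were called higher in TRKA cells and 0 lower, where 34.9% of all genes were called (18.3% higher and 16.6% lower). The median was 1.40 for members and −0.09 for all genes. Of 9678 genes above background on all 16 arrays, 3152 were higher and 721 lower (median 0.53). Of the 66 such members 43 were higher and 0 lower (median 1.62). Under other scalings the counts were 31 higher and 5 lower (quantile), 22 and 7 (percentile of always detected probes) and 27 and 3 (ranks). Among the genes that kept the call in all 27 alternatives were Cox5b (2.75, SE 0.41, adjusted p = 0.000124), Cox7a2l (2.66, SE 0.29, adjusted p = 8.08e-06), Sdhd (2.74, SE 0.31, adjusted p = 1.16e-05), Atp5d (3.13, SE 0.42, adjusted p = 5.47e-05) and Cox8a (4.09, SE 0.80, adjusted p = 0.00122). The count of 0 lower rose to 1 without CD90 replicate 4, TRKA replicate 2 or TRKA replicate 4 and to 2 without TRKA replicate 3. The 3 comparisons with TRKA cells share the TRKA arrays, which also had the fewest spots above background, and that part in the differences was not tested.

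The 17 core subunits are core proteins of complexes I, II and III and the alpha, beta and gamma subunits of ATP synthase. Of these, 7 were called in at least 1 of the 6 comparisons, among them Ndufs7, Ndufv2, Sdhd, Uqcrc1, Atp5a1 and Atp5b. The other 10 were not called in any (Ndufs1, Ndufs3, Ndufs8, Ndufv1, Sdha, Sdhb, Sdhc, Uqcrc2, Uqcrfs1 and Atp5c1), as were 18 of the other 66 members, a difference that was not tested. Some varied widely among the TRKA arrays. Ndufs3 was at 1.53, −7.50, 3.31 and 2.02 there, Uqcrfs1, the Rieske iron-sulfur protein, at 3.11, 3.59, −6.23 and 0.91, and Ndufs1 at −1.18, 0.88, −5.30 and −0.21. In each case 1 array lay far below the 3 others. In p75, CD90 and TRKA-TGF cells Uqcrfs1 ranged only from 1.48 to 2.90 and Ndufs1 from −0.84 to 0.27.

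The muscle forms Cox6a2 and Cox8b of complex IV were dim, and were above background on all 4 arrays in p75 cells alone. Neither would have passed the filter of at least 4 arrays without its p75 arrays. Their calls are thus of genes that entered the test through the population where they were high. Cox6a2, the heart and skeletal muscle form of subunit 6a (chromosome 1, 187464580 to 187464639), was at −4.11, −5.56, −4.61 and −5.54 on the p75 arrays, all 4 well above background. It was well above background on 0 of the 12 other arrays, so that only bounds can be given. It was at least 2.29-fold lower in CD90 (adjusted p = 3.52e-05), at least 1.42-fold lower in TRKA (adjusted p = 7.78e-05) and at least 1.76-fold lower in TRKA-TGF cells (adjusted p = 4.81e-05). Each bound sets the p75 mean against, per array, the probe's own signal or, where higher, the dimmest signal that still counted as well above background. With normexp background correction, which adds an offset to dim signals, none of the 3 was called (adjusted p = 0.0914 for CD90, 0.929 for TRKA and 0.0916 for TRKA-TGF) and the difference of TRKA cells was 0.02. Cox8b, the corresponding form of subunit 8, was at −4.14, −3.56, −3.44 and −3.61 in p75 cells. It was above background on 1 CD90, 0 TRKA and 1 TRKA-TGF array, at least 3.41-fold lower in TRKA than in p75 cells (adjusted p = 0.0474), a call lost in 18 of 27 alternatives. Of 8 striated muscle markers listed, 4 passed the filter. Their summed levels were 0.62 to 0.92 in p75 cells, 0.86 to 1.44 in TRKA-TGF, 2.70 to 6.73 in TRKA and 5.05 to 6.82 in CD90 cells. Any part of muscle cells in the levels of Cox6a2 and Cox8b was not tested. Cox6b2, the testis form of subunit 6b, was above background everywhere at −3.70 to −0.89 and not called. Cox6b1, Cox7a1, Cox7b2 and Ndufa4l2 were not found by name on the array.

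For 16 members more than 1 probe was kept. In TRKA against CD90 cells all probes gave the same call for 7 of them. Over the 6 comparisons, calls of opposite direction occurred for 1 gene, Ndufs4, an accessory subunit of the complex I peripheral arm. The brighter Ndufs4 probe was higher in TRKA than in CD90 cells (1.68, SE 0.44, adjusted p = 0.00898 in a fit of single probes), and the other was lower (adjusted p = 0.000343). The second probe was well above background on all 4 arrays of the other populations and on 0 TRKA arrays, so that its differences from TRKA cells have no exact size. Against TRKA cells, TRKA-TGF cells were lower by the first (−1.71, adjusted p = 0.0115) and higher by the second probe (adjusted p = 0.000887). Within slide 1 the first probe differed by 0.36 in TRKA against p75 cells (adjusted p = 0.565), and the second was lower (adjusted p = 6.01e-05). No direction for Ndufs4 in TRKA cells can therefore be given.

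Of the subunits encoded in mitochondrial DNA, 0 were called lower in CD90 than in p75 cells. Of the 13 such genes, 8 were tested, matched through the protein accession in the probe descriptions. All 8 encode subunits of complex I or V, so no mitochondrial gene of complex III or IV was tested. The nuclear members of complexes I and V had median differences of −0.67 and −0.82 in CD90 against p75 cells. In TRKA-TGF against CD90 cells they were 0.72 and 0.73. Medians of the 8 ranged from 6.07 to 6.28 on CD90 arrays, above the 5.91 to 6.01 of p75, the 5.57 to 5.87 of TRKA-TGF and the 5.50 to 5.93 of TRKA arrays. The gap between nuclear and mitochondrial genes was not itself tested. Against p75 cells all 8 differences were above 0, with a median of 0.31, and 1 was called, Mt-nd1 (0.79, SE 0.20, adjusted p = 0.0317), a complex I subunit whose call was lost in 8 alternatives. In TRKA-TGF against CD90 cells, within slide 2, all 8 were below 0 with a median of −0.45, and 4 were called lower. These were Mt-nd1 (−1.36, SE 0.20, adjusted p = 0.000366), Mt-atp8 (−1.20, SE 0.18, adjusted p = 0.00042), Mt-atp6 (−0.84, adjusted p = 0.00602) and Mt-nd2 (−0.66, adjusted p = 0.0279). Over 26 log2 alternatives the median of the 8 stayed between 0.28 and 0.40 in the first comparison and between −0.66 and −0.40 in the second, in which 3 or 4 were called lower, and on ranks 1 was. Both comparisons use the CD90 arrays. Within slide 1 the 8 genes were mixed in TRKA against p75 cells on the main scale (median 0.14). Mt-nd1 (2.15, adjusted p = 2.65e-06) and Mt-nd4 (0.61, adjusted p = 0.0181) were higher and Mt-atp8 lower (−1.10, adjusted p = 0.000349). That balance moved with the scaling. With quantile normalization, the authors' table and the percentile of always detected probes, 1 was higher and 6 lower. The medians were then −0.85, −0.85 and −0.75. On ranks 1 was higher and 1 lower. The direction of Mt-nd4 there was turned with quantile normalization, with the authors' table, with the percentile of always detected probes and on ranks.

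**Figure D5:**
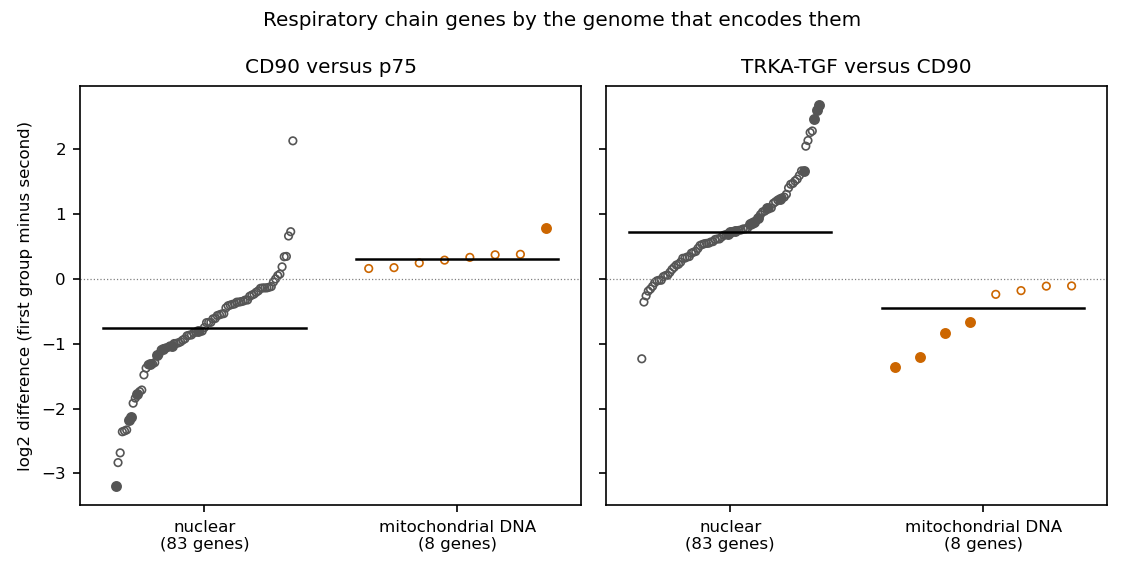
Log2 difference (vertical axis) of the 83 nuclear members and of the 8 tested genes of mitochondrial DNA (horizontal axis) in 2 comparisons, with a point for each gene, filled where limma called it, and lines for medians. In TRKA-TGF against CD90 cells the nuclear median is 0.72 and the mitochondrial one −0.45, and in CD90 against p75 cells they are −0.75 and 0.31. The nuclear genes cover complexes I to V and the mitochondrial ones complexes I and V only.

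Genes that serve the chain without being subunits were counted in lists of their own. Of 37 assembly factors tested, 0 were called in CD90 against p75 cells (median −0.24, and 0 or 1 lower over the alternatives) and 2 were higher in TRKA-TGF than in CD90 cells (median 0.50), Pet100 (2.45, adjusted p = 0.0106) and Cox17, a copper chaperone (1.56, adjusted p = 0.0236, lost in 4 alternatives). In TRKA against p75 cells 7 were higher and 7 lower, with Cox17 higher by 2.79 (adjusted p = 0.00017). Cox20 was lower (adjusted p = 2.92e-07), and was well above background on 4 p75 arrays and 0 TRKA arrays. Of 18 citric acid cycle genes 1 was called in each comparison involving CD90 and either p75 or TRKA-TGF cells, and it was Suclg1, a succinyl-CoA ligase subunit. It was higher in CD90 than in p75 cells (1.21, SE 0.26, adjusted p = 0.00972) and lower in TRKA-TGF than in CD90 cells (−1.07, SE 0.26, adjusted p = 0.0119), opposite to the respiratory chain genes, in all 27 alternatives. Of 18 regulators of mitochondrial biogenesis, Pprc1, a coactivator of the PGC-1 family, was higher in CD90 than in p75 cells (1.56, SE 0.26, adjusted p = 0.00129) and lower in TRKA-TGF than in CD90 cells (−0.81, adjusted p = 0.0487), the latter call lost in 12 alternatives. Ppargc1b of the same family was above background on 4 TRKA-TGF arrays and 0 CD90 arrays (adjusted p = 0.0012).

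Among 10 carriers and uncoupling proteins, Ucp2 differed in the same directions as the called respiratory genes. It ranged from 2.61 to 3.18 in p75 cells, from −0.57 to 1.23 in CD90 cells and from 3.92 to 4.17 in TRKA-TGF cells. Its differences were −2.21 for CD90 against p75 (SE 0.35, adjusted p = 0.000928) and 3.35 for TRKA-TGF against CD90 cells (SE 0.35, adjusted p = 1.32e-05), both in all 27 alternatives. Vdac1, a channel of the outer membrane, was also lower in CD90 than in p75 cells (−0.97, adjusted p = 0.038), a call lost in 12 alternatives. Atp5if1, the inhibitor of ATP synthase, was higher in TRKA-TGF than in CD90 cells (1.69, SE 0.22, adjusted p = 0.00012) and in TRKA than in p75 cells (1.76, SE 0.22, adjusted p = 3.47e-05). Cytochrome c itself, encoded by Cycs, was at means of 3.20 in p75 and 3.16 in CD90 cells (−0.04, adjusted p = 0.973), and Cyc1, the cytochrome of complex III, was dim in all 4 populations and not called.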

How the data were processed

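Sorted rat cells were measured on 16 single-colour Agilent arrays. The deposited intensity values come from Agilent Feature Extraction, version 10.7.3.1 per the file headers and 10.5 per the submitters' processing notes. The authors' deposited value table holds log2 values, and set against the scanner files it proved to be the quantile-normalized log2 processed signal centred per probe. Its column medians ran from −0.03 to 0.20. It served as an alternative.

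Spots marked as outliers were dropped and spots of a probe averaged. Levels are log2 processed signals relative to the array's 75th percentile, taken over probes that are not controls. Probes well above background on at least 4 of 16 arrays were kept, and each gene takes the brightest of its kept probes (by mean over all arrays). limma 3.58.1 in R 4.3.3 fitted 1 mean per population over 16 arrays, with empirical Bayes moderation and Benjamini-Hochberg adjustment over 20571 genes, and the procedure was tested on simulated data. The number of arrays limits the precision. The labels do not say whether replicates came from separate animals or cultures, so p-values measure the spread between these samples. Probe positions are on rn4 as the scanner files give them. Exon and UTR annotation on that build was not used here.

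The genes and the companion lists were chosen with earlier results of these data known. Named genes were, per comparison and complex, the called gene with the lowest p in each direction, then the core subunits, isoform sets, members whose probes gave opposite calls, names that are not subunits, members above background on no array of 1 group and all of another, and the leading companion genes within a slide. Atp5e, Atp5hl1, Atp5i, Atp5j2, Atp5l, Cox5a, Cox5b, Ndufb11 and Ndufc2, and the companion genes outside that rule such as Vdac1, were named after their values were seen. Some genes that the rule covers are not reported here.

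Alternatives were normexp background correction (offset 50), quantile normalization, the authors' table, the percentile over probes detected on all arrays, ranks within the array, no filter, a filter on all 4 arrays of a group, the mean of a gene's probes, trended robust moderation, the 8 arrays compared alone, the replicate number as a block, and each of the 16 arrays left out.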

Additional observations from a re-analysis of the deposited data

Results flagged for a closer look

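Among 208 sets of 4 levels (a named gene in a population), 13 held 1 array whose gap to the nearest other, over the range of the 4, exceeded Dixon's critical value, and among 24 sets of medians 1 did. Chance gives about 1 in 20.

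CD90 replicate 4 was the low array for 4 of them. It was at −0.030 for Atp5d (the others at 1.26 to 1.41), at −6.37 for Atp5sl (−1.62 to −0.93), at −8.38 for Cox4nb (−0.10 to 1.46) and at −4.35 for Ndufv1 (−1.48 to −0.92). CD90 replicate 3 was low for Ndufa10, at −2.57 against 0.04 to 0.39, and for Ndufb7, at 1.21 against 1.96 to 1.99. CD90 replicate 2 was low for Cox5b, at −1.25 against −0.19 to −0.13, and CD90 replicate 1 was high for Cox8b, at −2.31 against −8.37 to −7.40.

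In p75 cells replicate 1 was at −8.17 for Atp5s (the others at −2.44 to −1.49), replicate 4 at −0.34 for Cox8a (0.43 to 0.53), and replicate 3 had a complex V median of 2.49 against 2.04 to 2.07. TRKA replicate 2 was high for Ndufb9, at 5.96 against 5.64 to 5.65, and low for Ndufs3, at −7.50 against 1.53 to 3.31. TRKA-TGF replicate 2 was at −4.33 for Cox8b, against −7.97 to −7.57.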

How the results depend on the processing

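Over 27 alternatives, 2415 of 2808 values for 104 calls of 52 named respiratory chain genes kept direction and call, 382 lost the call and 11 changed direction. For 30 calls of companion genes 738 of 810 held, 67 lost the call and 5 changed direction. The cause of these changes was not tested.

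In CD90 against p75 cells, ranks within the array gave 5 genes lower and trended robust moderation 15. In TRKA against CD90 cells the median was 0.96 with quantile normalization and the authors' table and 0.42 with the percentile over always detected probes. There 22 genes were higher with that percentile and 27 on ranks, and the number lower was 5 (quantile and authors' table), 7 (that percentile), 3 (ranks) and 1 (mean of probes). In TRKA against p75 cells the median was 0.27 (quantile, authors' table) and −0.16 (always detected probes), 14, 14, 10 and 12 genes were higher with quantile, the authors' table, always detected probes and ranks, and 4, 5 and 16 were lower with normexp, the 8 arrays alone and always detected probes. In TRKA-TGF against CD90 cells, always detected probes gave a median of 0.51 and 4 genes higher. In TRKA-TGF against TRKA cells, always detected probes gave a median of 0.11 with 11 genes higher and 12 lower, the authors' table and quantile normalization 8 higher and 14 lower, and ranks 10 lower. In TRKA-TGF against p75 cells 2 genes were lower with the filter on all 4 arrays of a group, the mean of probes and ranks, 3 with always detected probes and 4 in the 8 arrays alone.

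Changes of direction were these. Cox6a2 in TRKA against p75 cells was 0.023 with normexp. In TRKA against CD90 cells Cox7b was −0.53 (quantile, authors' table), −0.43 (always detected probes) and −1.09 percentile points (ranks), and Ndufb4 was −0.26, −0.24 and −0.97 in the same order. With probes averaged, Ndufs4 was −1.61 in TRKA against CD90 and 1.46 in TRKA-TGF against TRKA cells, and Cycs was −0.55 in the latter. Mt-nd4 in TRKA against p75 cells was −0.33 (quantile, authors' table), −0.28 (always detected probes) and −0.14 percentile points (ranks).

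With 1 array left out at a time, CD90 against p75 cells gave 0 genes higher, 4 to 11 lower and a median of −0.78 to −0.61. TRKA-TGF against CD90 cells gave 5 to 17 higher, 0 lower and a median of 0.66 to 0.77. TRKA-TGF against p75 cells gave 1 to 3 higher, 1 to 3 lower and a median of −0.05 to 0.04. TRKA against p75 cells gave 21 to 32 higher, 3 to 8 lower and a median of 0.58 to 0.92. TRKA against CD90 cells gave 37 to 46 higher, 0 to 2 lower and a median of 1.32 to 1.59. TRKA-TGF against TRKA cells gave 2 to 5 higher, 22 to 27 lower and a median of −0.84 to −0.60.

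Samples with the same replicate number did not deviate together (correlations of −0.03 to 0.04), although in TRKA-TGF against TRKA cells 4 of 4 correlated best with their own number. With the replicate number as a block, 8 genes were called higher in TRKA-TGF than in CD90 cells and 2 higher in TRKA-TGF than in TRKA cells, and the other counts stayed within 1.5 times. Signal over background limits the dim genes Cox6a2, Cox8b, Atp5s and Cox4i2, and 66 of 83 members were above background on all arrays.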
